A study of Mus musculus with 12 samples.

Results

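Interferon-stimulated genes are the genes a cell turns on when interferon reaches it, and 44 of them were followed here by bulk RNA-seq of epithelium from mouse jejunum. A listed gene was kept when the authors' table held its symbol and it reached 1 TPM in at least 3 of the 12 libraries. TPM, a relative abundance, is corrected for transcript length and library total, so levels can be compared between genes but sequencing depth is unknown. The minimum was met by 43 of the 44, beside 14510 of the 55421 genes in the whole table. Socs1, a feedback inhibitor of cytokine receptors, missed it: it lay at 0.56, 0.97 and 0.56 TPM in Ctrl day 1, 0.88, 0.75 and 0.55 TPM in Fzd5KO day 1, 0.39, 0.23 and 0.45 TPM in Ctrl day 3 and 0.77, 1.01 and 1.04 TPM in Fzd5KO day 3.

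The study compared control mice (Ctrl) with Fzd5KO mice, whose label names a loss of Fzd5; this gene encodes a Frizzled protein through which cells sense Wnt. Each genotype was sampled at day 1 and at day 3, with 3 libraries in each of the 4 groups. The labels used here give no strain, age or Cre driver, no event from which the days were counted, and no statement that replicates came from separate animals. P-values therefore reflect library-to-library spread alone, and that spread may be technical.

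As background, cells recognise viral RNA with cytosolic sensors such as RIG-I and MDA5 and answer by secreting interferon. Type I and type III interferons bind separate receptors that share the kinases JAK1 and TYK2, and these lead to a complex, with STAT2 and IRF9 among its subunits, that binds the interferon-stimulated response element (ISRE). Interferon gamma, made mainly by T cells and natural killer cells, acts on genes through the gamma-activated site (GAS). In the gut, epithelial cells respond strongly to type III interferon and also to interferon gamma.

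Letters that match the core of the ISRE occur in the promoters of several of these genes, and the stretches are shown for the 6 members with the largest day 3 change among those that hold the motif before the start of transcription. The motif was searched as GAAANNGAA on both strands in RefSeq windows (GRCm38.p6, the mm10 assembly) that run from 250 bases before to 50 bases after a gene's start. Each line below is read 5′ to 3′ on the gene's own strand, in lower case, with every motif match in capitals. The positions are chr5:120887614-120887681 on the minus strand for Oas1g, chr4:156200826-156200946 on the minus strand for Isg15, chr5:120777670-120777784 on the minus strand for Oas3, chr8:61927984-61928086 on the plus strand for Ddx60, chr5:120907526-120907595 on the minus strand for Oas1a and chr8:71537538-71537652 on the minus strand for Bst2.
Oas1g: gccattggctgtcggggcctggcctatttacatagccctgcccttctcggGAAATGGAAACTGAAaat
Isg15: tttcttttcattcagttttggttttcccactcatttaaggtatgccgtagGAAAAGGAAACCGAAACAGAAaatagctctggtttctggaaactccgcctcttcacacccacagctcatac
Oas3: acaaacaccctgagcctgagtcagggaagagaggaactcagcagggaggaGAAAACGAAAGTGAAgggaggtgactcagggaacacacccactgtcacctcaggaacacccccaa
Ddx60: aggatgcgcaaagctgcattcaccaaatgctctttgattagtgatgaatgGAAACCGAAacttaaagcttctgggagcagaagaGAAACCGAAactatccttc
Oas1a: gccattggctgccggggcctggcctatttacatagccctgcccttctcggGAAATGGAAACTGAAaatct
Bst2: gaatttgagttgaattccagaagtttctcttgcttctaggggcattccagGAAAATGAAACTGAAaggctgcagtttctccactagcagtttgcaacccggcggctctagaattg
Matches that share bases appear as 1 run of capitals, as in Isg15 with 3 matches and in Oas1g, Oas1a, Oas3 and Bst2 with 2 each, while the 2 matches of Ddx60 stand apart.

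A RefSeq window was found for 34 of the 44 genes, and 17 of these 34 held GAAANNGAA. The same letters were in 8.55% of the tested genes and in 9.76% of all genes that had a window. Counted by window, they were in 42.5% of the 40 member windows and in 8.56% of all 32851. The GAS letters TTCNNNGAA, searched on both strands, were in 9 of the 34 (26.5%), against 8.38% of tested genes and 9.55% of all genes. By window the shares were 22.5% for the members and 8.30% for all. TTCNNNGAA without GAAANNGAA was found for Irf1, Irf8, Ifi35, Ifit2, Isg20 and Samhd1. Only in Bst2 did a match of one motif overlap a match of the other. Among tested members, the 16 with GAAANNGAA had a median day 3 change of 1.36 on the log2 scale, from 0.59 to 3.53. The 17 whose window lacked it had a median of 0.83, from −0.05 to 5.75, and the 10 with no window had 0.88. Ubd, with the largest change of all, held neither motif in its window, which says only that these letters are not in these bases.

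Facts of the whole series bear on the reading of these genes. Fzd5 itself was measured at 31.9 to 33.1 TPM in Fzd5KO and 43.5 to 49.4 TPM in Ctrl at day 1, and at 37.8 to 39.7 and 60.5 to 68.2 TPM at day 3. Which exons were deleted is not stated in those labels, and transcripts from the rest of the gene would still be counted. Epithelial markers were high in every group, with Epcam, an epithelial adhesion molecule, at 823 to 1210.0 TPM as group means. Ctrl day 1 replicate 1 stood apart in listing 24467 genes above 0, against 21506 to 22613 in the other 11 libraries. Genes of the abundant 7S RNAs held 22.9 to 25.7% of all TPM in Ctrl day 1 and 26.2 to 27.2% in Fzd5KO day 1. At day 3 they held 19.8 to 21.1% in Ctrl and 19.7 to 21.9% in Fzd5KO. TPM add up to a fixed total, and the part of these shares in the changes below was not tested.

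At day 3 nearly the whole set was higher in the knockout. Of 43 members 41 rose and 0 fell, where 62.8% of all tested genes were called, 24.3% as higher and 38.5% as lower (limma on log2(TPM + 1), Benjamini-Hochberg adjusted p under 0.05). At an unadjusted p under 0.05, 42 members were higher and 0 lower. The median change of the members was 1.04 on the log2 scale, against −0.14 for all tested genes. In 42 of the 43 every Fzd5KO library lay above every Ctrl library, which held for 25.7% of tested genes. A change of at least 1, a size chosen after the data were seen, was reached by 22 members (51.2%) and by 4.47% of tested genes. The summed level of the members was 1292 to 1386 TPM in Ctrl and 2839 to 2901 TPM in Fzd5KO. Changes are differences of log2(TPM + 1), given with their standard error, and this scale understates the change of low genes. In bulk libraries, a change in the number of cells of a type and a change in RNA per cell cannot be told apart.

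**Figure D1:**
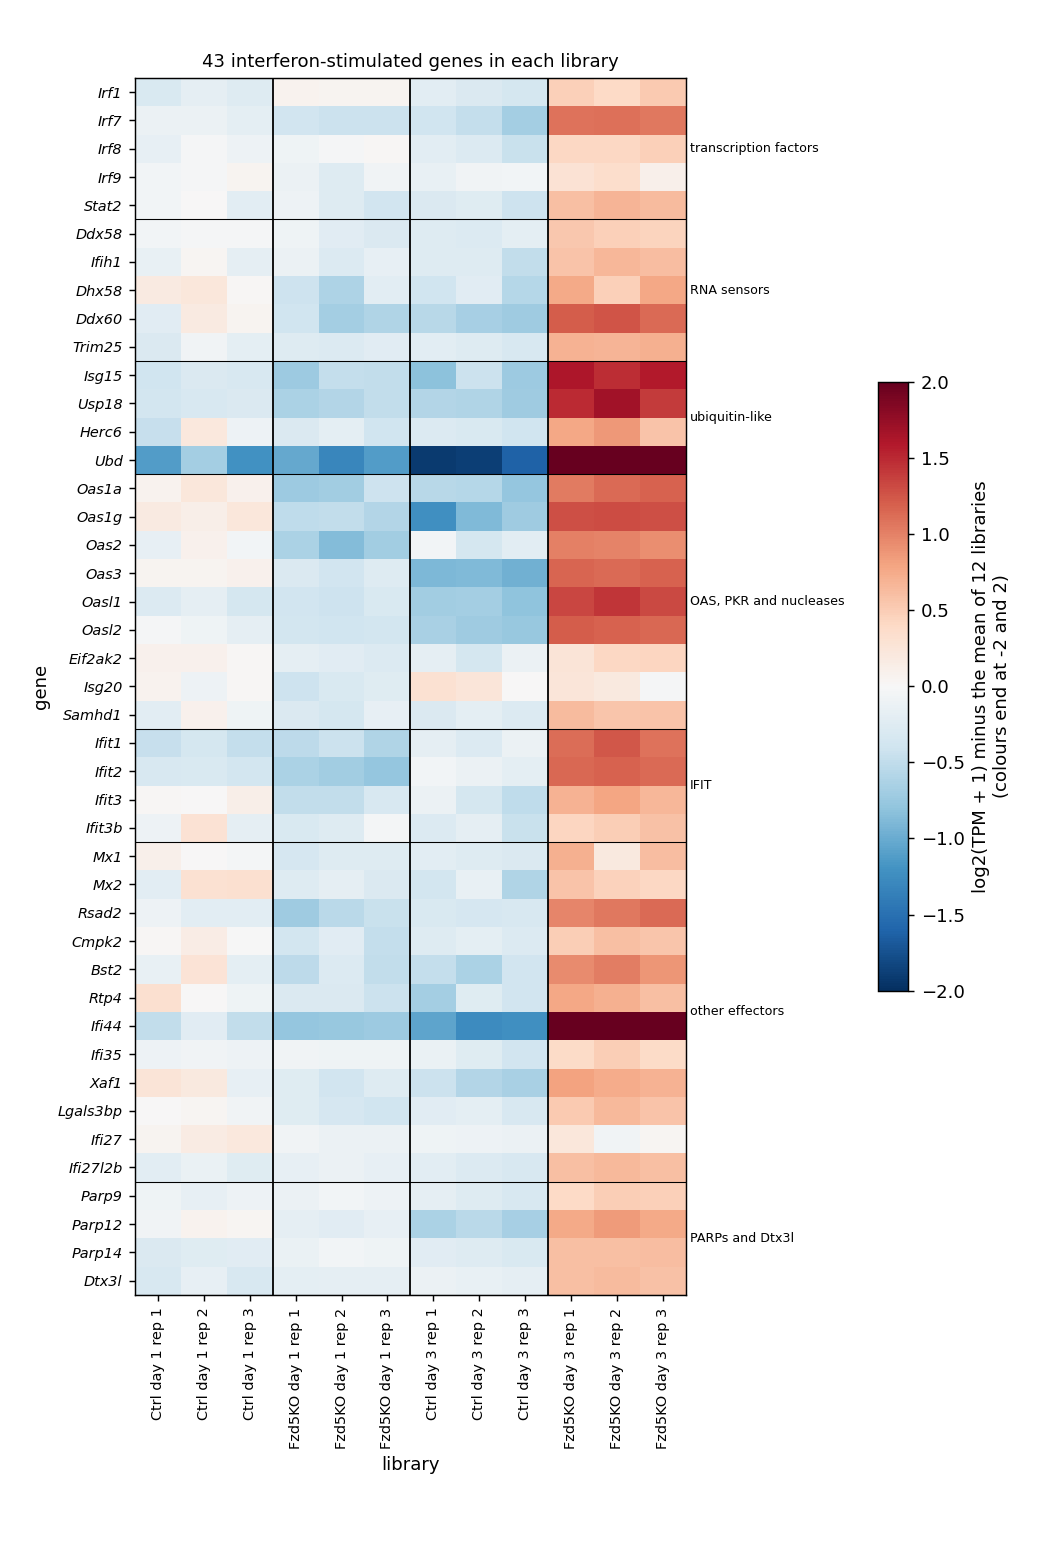
Each row is 1 of the 43 genes, grouped by role, and each column 1 of the 12 libraries; colour is log2(TPM + 1) minus the gene's mean over the 12 libraries, ending at −2 and 2. The 3 Fzd5KO day 3 columns are red in nearly every row, 42 of 43 genes being above Ctrl day 3 in every library, and Isg20 is the exception.

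At day 1 the same genes were, as a set, slightly lower in the knockout. Of 43 members 22 fell and 2 rose, where 25.0% of tested genes were called, 22.8% as lower and 2.13% as higher. The median change was −0.25, against −0.14 for all tested genes. Every Fzd5KO library lay below every Ctrl library in 26 members and above in 2, where 38.9% and 4.52% of tested genes did so. The summed level was 1526 to 1625 TPM in Ctrl and 1449 to 1466 TPM in Fzd5KO.

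These day 1 changes are small and depend on the scale. Quantile normalization, which gives every library the same distribution, moved the median of all genes by 0.14 and left 10 members lower and 5 higher. Median-of-ratios scaling moved it by 0.14 (10 lower, 7 higher), and rescaling without the most abundant, mitochondrial, predicted and small RNA genes by 0.094 (13 lower, 6 higher). Of the 14510 tested genes, 920 were called lower and 851 higher at day 1 with quantile normalization. These all-gene counts were 912 and 1277 with median-of-ratios scaling, and 1349 and 773 with rescaling. The 9 members called lower under all 4 scalings were Dhx58, Ddx60, Oas1a, Oas1g, Oas2, Oas3, Ifit3, Cmpk2 and Lgals3bp, and the 2 called higher under all 4 were Irf1 and Parp14. Without Ctrl day 1 replicate 2, 14 members were lower and 3 higher, where 1964 and 265 of all tested genes were. At day 3 the 3 scalings moved the median of all genes by 0.11, 0.12 and −0.10, and 41, 42 and 41 members rose. Over all tested genes 3984, 4567 and 2913 were called higher, and 4402, 4248 and 6927 lower.

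On the deposited TPM scale, lower at day 1 and higher at day 3 described 21 of the 43 members, against 5.62% of tested genes. This count depends on the scale. Under each other scaling only 10 to 13 members were called lower at day 1, so no more than that can meet both conditions. The matching share of tested genes under those scalings is not given here. The 2 genotype contrasts share no library, but 1 estimate of the spread from all 12 libraries serves both.

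**Figure D2:**
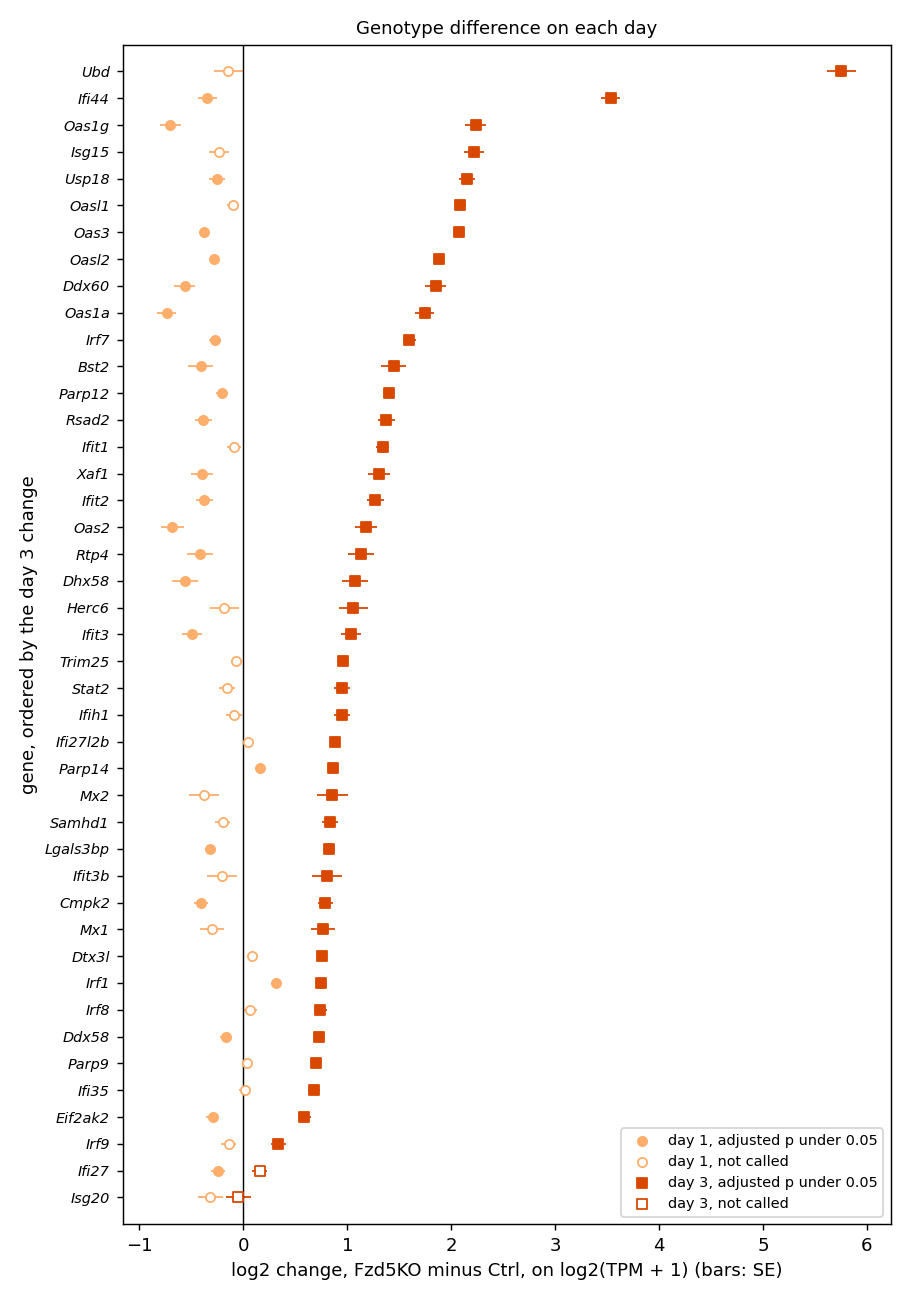
Points give each gene's log2 change between Fzd5KO and Ctrl, circles for day 1 and squares for day 3, with bars for the standard error; filled points passed an adjusted p of 0.05. The day 3 points run from −0.05 (Isg20) to 5.75 (Ubd) and the day 1 points from −0.74 (Oas1a) to 0.31 (Irf1); with other scalings of the TPM the day 1 points move up by about 0.1 and several small ones cross 0.

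Transcription factors of the pathway rose by modest amounts at day 3. All 5 passed, with a median of 0.75 and a range of 0.34 to 1.60. At day 1 Irf1 rose and Irf7 fell, and the median was −0.14 (0.017 with median-of-ratios scaling). Beside the counts of this and each later role group, 24.3% of tested genes were called higher and 38.5% lower at day 3. At day 1 these shares were 2.13% and 22.8%. They hold for the deposited TPM scale, and role counts under another scaling go with the all-gene counts given above for it. Irf7, the factor that amplifies type I interferon production and is itself interferon-induced, lay at 37.8, 35.5 and 31.1 TPM in Ctrl day 3 and at 107, 109 and 105 TPM in Fzd5KO day 3. Its day 1 values were 46.0, 45.9 and 43.8 TPM in Ctrl and 38.3, 36.8 and 36.8 TPM in Fzd5KO. The groups did not overlap on either day, and the direction differed: Irf7 fell by 0.27 ± 0.060 at day 1 (adjusted p = 0.00797) and rose by 1.60 ± 0.060 at day 3 (adjusted p = 1.44e-09). The day 1 call was lost after median-of-ratios scaling (adjusted p = 0.125) and quantile normalization (adjusted p = 0.0515).

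Stat2, a subunit of the ISRE-binding complex, was at 32.7, 34.3 and 29.1 TPM in Ctrl day 1 and 31.6, 28.2 and 25.9 TPM in Fzd5KO day 1, and these groups overlapped. At day 3 it was at 27.6, 28.6 and 25.3 TPM in Ctrl and 52.2, 55.2 and 53.1 TPM in Fzd5KO, a rise of 0.95 ± 0.078 (adjusted p = 9.32e-07). Irf9, another subunit of it, moved least of the 5. It lay at 20.3, 21.6 and 21.9 TPM in Ctrl day 3 and 27.8, 29.3 and 24.4 TPM in Fzd5KO day 3, a rise of 0.34 ± 0.072 (adjusted p = 0.00173). At day 1 Irf9 was at 21.8, 22.4 and 23.6 TPM in Ctrl and 20.8, 18.9 and 21.6 TPM in Fzd5KO, and the difference of −0.14 ± 0.072 did not pass (adjusted p = 0.177; 0.017 with median-of-ratios scaling).

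Irf1, a factor induced chiefly by interferon gamma, was the member with the largest rise at day 1. It lay at 93.9, 102 and 96.6 TPM in Ctrl day 1 and 122, 121 and 119.8 TPM in Fzd5KO day 1, a rise of 0.31 ± 0.045 (adjusted p = 0.000949). At day 3 it was at 99.8, 94.2 and 90.9 TPM in Ctrl and 162, 153 and 167 TPM in Fzd5KO, a rise of 0.75 ± 0.045. Irf8, better known from myeloid cells and B cells, was at 33.7 to 40.0 TPM in Ctrl day 3 and 61.9 to 64.5 TPM in Fzd5KO day 3, a rise of 0.74 ± 0.061. Csf1r, a defining receptor of macrophages, had means of 0.72 and 3.81 TPM in the same groups, and summed macrophage and dendritic cell markers were 10.4 to 14.6 and 29.1 to 31.2 TPM; their part in the Irf8 level was not tested.

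**Figure D3:**
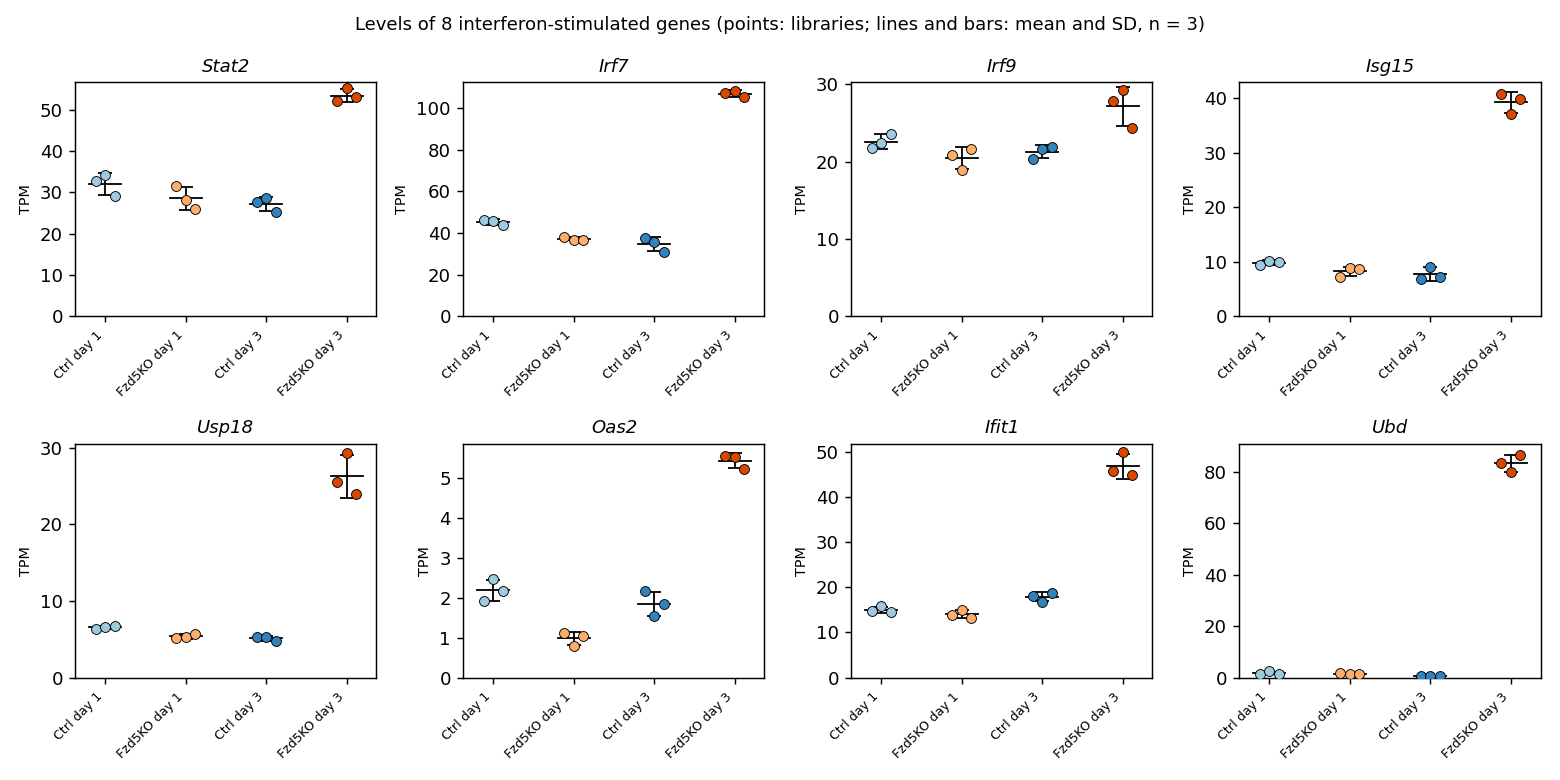
TPM of 8 members in each library (points) by group, with the mean and SD of n = 3 (line and bar). Fzd5KO day 3 is the highest group in all 8 panels, from 5.22 to 5.55 TPM for Oas2 and 105 to 109 TPM for Irf7. In the Oas2 panel Fzd5KO day 1 (0.80 to 1.11 TPM) also lies below both Ctrl groups.

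All 5 genes of foreign RNA sensing rose at day 3, by a median of 0.96, and 3 fell at day 1 (2 with each of the other 3 scalings). Ddx58 (RIG-I) rose by 0.73 ± 0.052, Ifih1 (MDA5) by 0.95 ± 0.075 and Trim25, the ubiquitin ligase that activates RIG-I, by 0.96 ± 0.053. Ddx60, a helicase described as a cofactor of RIG-I, stood out. It lay at 14.6, 13.3 and 12.9 TPM in Ctrl day 3 and 52.0, 53.6 and 49.2 TPM in Fzd5KO day 3, a rise of 1.85 ± 0.10 (adjusted p = 3.26e-08). At day 1 Ddx60 was at 18.4, 24.8 and 22.6 TPM in Ctrl and 16.2, 13.2 and 14.0 TPM in Fzd5KO, a change of −0.56 ± 0.10 (adjusted p = 0.00304). No Fzd5KO day 1 library reached the lowest Ctrl value.

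Dhx58 (LGP2), the third RIG-I-like receptor, followed the same course at a lower level. Its day 1 values were 7.84, 8.18 and 6.95 TPM in Ctrl and 4.87, 4.09 and 5.74 TPM in Fzd5KO, a change of −0.56 ± 0.13 (adjusted p = 0.00916). At day 3 Dhx58 lay at 4.95, 5.67 and 4.26 TPM in Ctrl and 12.3, 9.93 and 12.4 TPM in Fzd5KO, a rise of 1.07 ± 0.13. Ifih1 and Trim25 did not pass at day 1 (−0.09 and −0.07), and both turned positive with each of the 3 other scalings. Ddx58 passed at day 1 (−0.17, adjusted p = 0.0376) and did not with any of the 3 other scalings.

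Ubiquitin-like modifiers and their enzymes had the largest median of the role groups at day 3, 2.19: all 4 rose, and 1 fell at day 1. Ubd encodes FAT10, a ubiquitin-like tag for the proteasome that is induced by interferon gamma and tumour necrosis factor; the gene lies at chr17:37193892-37196095 on the plus strand (mm10). In Ctrl day 3 it was at 0.44, 0.48 and 0.78 TPM, and in Fzd5KO day 3 at 83.4, 79.9 and 86.4 TPM. This rise of 5.75 ± 0.14 (adjusted p = 6.88e-11) was the largest of all 14510 tested genes. The ratio of means was 147, and it rests on control values under 1 TPM. At day 1 Ubd was at 1.52, 2.40 and 1.36 TPM in Ctrl and 1.69, 1.21 and 1.51 TPM in Fzd5KO, groups that overlapped (−0.15 ± 0.14, adjusted p = 0.463; 0.030 with quantile normalization).

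Isg15, the ubiquitin-like protein that interferon attaches to many targets, and Usp18, the protease that removes it and also restrains the type I receptor, moved by nearly the same amount. Isg15 was at 6.75, 9.09 and 7.24 TPM in Ctrl day 3 and 40.8, 37.1 and 39.9 TPM in Fzd5KO day 3, a rise of 2.22 ± 0.099 (adjusted p = 6.05e-09). Usp18 was at 5.30, 5.26 and 4.79 TPM in Ctrl day 3 and 25.5, 29.3 and 24.0 TPM in Fzd5KO day 3, a rise of 2.15 ± 0.077 (adjusted p = 1.13e-09). Both means were about 5.1 times the control mean, with ratios of 5.10 and 5.13. At day 1 Isg15 was at 9.31, 10.2 and 9.96 TPM in Ctrl and 7.21, 8.76 and 8.66 TPM in Fzd5KO, which did not pass (−0.23 ± 0.099, adjusted p = 0.106). Usp18 at day 1 was at 6.36, 6.58 and 6.75 TPM in Ctrl and 5.12, 5.28 and 5.70 TPM in Fzd5KO. It passed (−0.25 ± 0.077, adjusted p = 0.0371), but not with the other 3 scalings (adjusted p = 0.173 to 0.415). The call was also lost without any 1 of the 3 Ctrl day 1 libraries or without Fzd5KO day 1 replicate 1 or 2 (adjusted p = 0.0577 to 0.109). Herc6, the mouse ligase that attaches Isg15, rose by 1.06 ± 0.14 at day 3, from 7.75 to 8.49 TPM in Ctrl to 16.0 to 19.9 TPM in Fzd5KO.

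The 2′-5′-oligoadenylate synthetases, which make the messenger that activates RNase L, all rose. Of the 9 genes grouped with them 8 rose at day 3, with a median of 1.75, and at day 1 6 fell (4 with median-of-ratios scaling). The 6 Oas and Oasl genes lie in 2 clusters on chromosome 5 (mm10), Oasl2 and Oasl1 within 114896936 to 114937915 and Oas2, Oas3, Oas1g and Oas1a within 120730333 to 120907521. Oas1g lay at 8.27, 10.7 and 12.2 TPM in Ctrl day 3 and 51.9, 52.2 and 51.9 TPM in Fzd5KO day 3, a rise of 2.24 ± 0.10 (adjusted p = 5.82e-09). Its day 1 values were 23.5, 22.4 and 24.3 TPM in Ctrl and 14.2, 14.3 and 13.4 TPM in Fzd5KO, a change of −0.70 ± 0.10 (adjusted p = 0.00076). Oas1a, its neighbour, was at 11.7, 11.5 and 9.89 TPM in Ctrl day 3 and 37.2, 39.7 and 40.9 TPM in Fzd5KO day 3, a rise of 1.75 ± 0.091 (adjusted p = 2.21e-08). At day 1 Oas1a had the lowest change of any member, −0.74 ± 0.091 (adjusted p = 0.000321), from 18.4, 20.8 and 18.8 TPM in Ctrl to 10.3, 10.5 and 12.99 TPM in Fzd5KO. Transcripts of these neighbours were 97.5% identical over 1860 aligned bases, and 56.9% of the 50-base words of Oas1a also occurred in Oas1g, so reads may be split between them and each value is uncertain.

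Oas3 and Oas2 are the larger synthetases of the same cluster. Oas3 was at 7.77, 7.84 and 7.41 TPM in Ctrl day 3 and 35.5, 35.0 and 36.2 TPM in Fzd5KO day 3, a rise of 2.08 ± 0.048 (adjusted p = 6.18e-11). At day 1 Oas3 lay at 16.0, 16.1 and 16.5 TPM in Ctrl and 12.4, 11.6 and 12.7 TPM in Fzd5KO (−0.38 ± 0.048, adjusted p = 0.000392). Both days' groups were separate, in opposite directions. Oas2 was low throughout: 1.92, 2.46 and 2.16 TPM in Ctrl day 1, 1.11, 0.80 and 1.03 TPM in Fzd5KO day 1, 2.16, 1.55 and 1.83 TPM in Ctrl day 3 and 5.55, 5.52 and 5.22 TPM in Fzd5KO day 3. It fell by 0.68 ± 0.11 on the log2 scale at day 1 (adjusted p = 0.00156) and rose by 1.18 ± 0.11 at day 3 (adjusted p = 2.64e-06).

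Among the Oasl genes, whose products resemble the synthetases and carry ubiquitin-like ends, the day 3 rises were 2.09 ± 0.056 for Oasl1 (adjusted p = 1.4e-10) and 1.88 ± 0.046 for Oasl2 (adjusted p = 7.14e-11). Oasl1 was at 21.3, 21.7 and 19.7 TPM in Ctrl day 3 and 90.4, 96.5 and 89.7 TPM in Fzd5KO day 3. Oasl2 was at 35.1, 33.4 and 32.4 TPM in Ctrl day 3 and 130, 127 and 124 TPM in Fzd5KO day 3. These 2 transcripts were 60.7% identical and shared 0 words of 50 bases. At day 1 they parted: Oasl2 was at 54.3, 52.4 and 48.7 TPM in Ctrl and 42.6, 41.8 and 42.99 TPM in Fzd5KO and passed (−0.28 ± 0.046, adjusted p = 0.00175), though not with median-of-ratios scaling (adjusted p = 0.0823). Oasl1 was at 28.9, 31.0 and 27.5 TPM in Ctrl and 26.8, 26.2 and 28.4 TPM in Fzd5KO and did not pass (−0.10 ± 0.056; positive with each of the other 3 scalings). Whether these 2 day 1 changes differ from each other was not tested.

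The remaining 3 genes of this group moved less. Eif2ak2 (PKR), the kinase that stops translation on double-stranded RNA, rose by 0.59 ± 0.065 at day 3, and Samhd1, which depletes nucleotides, by 0.83 ± 0.073. Isg20, a 3′ to 5′ exonuclease, is the 1 member whose groups overlapped at day 3, at 1.76, 1.65 and 1.26 TPM in Ctrl day 3 and 1.66, 1.56 and 1.2 TPM in Fzd5KO day 3 (−0.05 ± 0.12, adjusted p = 0.751; 0.04 after median-of-ratios scaling and 0.12 after quantile normalization).

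The 4 Ifit genes, whose products bind foreign RNA ends, lie together at chr19:34550694-34650009 and all rose at day 3, by a median of 1.16, while 2 fell at day 1. Ifit1 was at 18.1, 16.8 and 18.8 TPM in Ctrl day 3 and 45.7, 49.99 and 44.9 TPM in Fzd5KO day 3, a rise of 1.34 ± 0.065 (adjusted p = 1.14e-08). At day 1 Ifit1 was at 14.7, 15.8 and 14.5 TPM in Ctrl and 14.0, 15.0 and 13.2 TPM in Fzd5KO, which overlapped (−0.09 ± 0.065, adjusted p = 0.335; between 0.014 and 0.065 with the other 3 scalings). Ifit2 was at 1.37, 1.39 and 1.28 TPM in Ctrl day 1, 0.89, 0.81 and 0.73 TPM in Fzd5KO day 1, 1.84, 1.71 and 1.58 TPM in Ctrl day 3 and 5.52, 5.66 and 5.43 TPM in Fzd5KO day 3. Its day 3 rise was 1.27 ± 0.085 and its day 1 change −0.38 ± 0.085 (adjusted p = 0.00935; 0.0918 with quantile normalization). Ifit3 rose by 1.04 ± 0.096 and Ifit3b by 0.80 ± 0.14 at day 3. Their transcripts were 97.8% identical over 1700 aligned bases, so reads may be split between them and these 2 values are uncertain.

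Among the 12 other effectors 11 rose at day 3, with a median of 0.87, and at day 1 8 fell and 0 rose. The day 1 split was 2 lower and 0 higher with quantile normalization, 3 and 1 with rescaling, and 2 and 2 with median-of-ratios scaling. Ifi44, an interferon-induced protein of little-known function, had the fourth-largest rise of all tested genes, 3.53 ± 0.093 (adjusted p = 1.12e-10); it lies at chr3:151730922-151749960 on the minus strand. It was at 1.68, 1.32 and 1.37 TPM in Ctrl day 3 and 28.1, 25.6 and 28.6 TPM in Fzd5KO day 3, a ratio of means of 18.8. At day 1 Ifi44 was at 2.95, 3.74 and 2.96 TPM in Ctrl and 2.26, 2.29 and 2.37 TPM in Fzd5KO (−0.35 ± 0.093, adjusted p = 0.0206), a call lost with each of the other 3 scalings (adjusted p = 0.0643 to 0.263). Bst2 (tetherin), which holds budding virus at the cell surface, was at 6.57, 5.83 and 7.04 TPM in Ctrl day 3 and 19.2, 20.5 and 18.4 TPM in Fzd5KO day 3, a rise of 1.45 ± 0.12 (adjusted p = 1.11e-06). In day 1 libraries Bst2 was at 8.49, 11.7 and 8.24 TPM in Ctrl and 6.32, 7.71 and 6.50 TPM in Fzd5KO (−0.41 ± 0.12, adjusted p = 0.0311), and this call too was lost with each of the other 3 scalings.

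Rsad2 (viperin), which makes a chain-terminating nucleotide, and its neighbour Cmpk2, a nucleotide kinase 12752 bases away on chromosome 12, rose by 1.38 ± 0.082 and 0.79 ± 0.070 at day 3. Xaf1, a pro-apoptotic interferon-induced protein, rose by 1.31 ± 0.10, from 8.94, 7.86 and 7.5 TPM in Ctrl to 22.3, 21.4 and 20.7 TPM in Fzd5KO. Rtp4 rose by 1.13 ± 0.13, Lgals3bp, a secreted galectin-binding protein, by 0.83 ± 0.050 and Ifi35 by 0.68 ± 0.055. The GTPases that trap viral nucleocapsids were low: Mx1, at 3.19 to 3.44 TPM in Ctrl day 3 and 4.92 to 7.46 TPM in Fzd5KO day 3, rose by 0.77 ± 0.12, and Mx2, which the annotation calls a polymorphic pseudogene, by 0.86 ± 0.15. Their transcripts were 75.9% identical, and 4.77% of the 50-base words of Mx1 occurred in Mx2.

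Ifi27 and Ifi27l2b, neighbours on chromosome 12, parted. Ifi27l2b was the most abundant member, at 389, 370.1 and 360 TPM in Ctrl day 3 and 679, 705 and 681 TPM in Fzd5KO day 3, a rise of 0.88 ± 0.037 (adjusted p = 3.58e-09). Ifi27 was at 26.8, 26.4 and 26.2 TPM in Ctrl day 3 and 33.2, 26.9 and 29.1 TPM in Fzd5KO day 3. These Ifi27 groups did not overlap, by a margin of hundredths of a TPM, and the change of 0.16 ± 0.069 did not pass (adjusted p = 0.0662; 0.00479 with median-of-ratios scaling, where it was 0.30).

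The ADP-ribosyltransferases and their partner Dtx3l all rose at day 3, with a median of 0.81. Parp12, which acts on viral translation, rose by 1.40 ± 0.050 (adjusted p = 1.06e-09), from 20.1 to 21.98 TPM in Ctrl to 55.7 to 59.1 TPM in Fzd5KO. Parp9, Dtx3l and Parp14 lie within chr16:35832874-35972605 and rose by 0.70 ± 0.046, 0.75 ± 0.048 and 0.87 ± 0.035. The median of this group at day 1 was positive (0.06), and it kept that sign under the other 3 scalings. Parp14 passed as higher at day 1 (0.16 ± 0.035, adjusted p = 0.00851), at 52.3, 54.0 and 54.4 TPM in Ctrl and 58.1, 61.2 and 60.5 TPM in Fzd5KO. Parp12 passed as lower (−0.21, adjusted p = 0.0125), though not with any of the other 3 scalings. Under each of these, Parp9 and Dtx3l passed as higher with Parp14, so the group's split was 3 higher and 0 lower. Dtx3l and Parp9 overlap by 681 bases on opposite strands. The strand setting of the counting step is unknown here, which makes both values uncertain.

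The genotype effect changed between the days in nearly every member. For 42 of 43 the day 3 effect was higher than the day 1 effect, and for 0 lower, where 44.3% of tested genes were called, 25.3% in the first direction and 19.1% in the second. The median difference was 1.24, against 0.0092 for all tested genes. It was largest in Ubd (5.90 ± 0.20, adjusted p = 1.95e-09), Ifi44 (3.88 ± 0.13), Oas1g (2.94 ± 0.14), Oas1a (2.48 ± 0.13), Oas3 (2.46 ± 0.068) and Isg15 (2.45 ± 0.14). Isg20 did not pass (0.27 ± 0.17, adjusted p = 0.229). Irf9 (0.47 ± 0.10, adjusted p = 0.00279) and Ifi27 (0.40 ± 0.097) passed, but not after rescaling without abundant and small RNA genes (adjusted p = 0.0755 and 0.188). Irf1 (0.44 ± 0.064) did not pass with quantile normalization (adjusted p = 0.0675).

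The 2 genotypes moved in opposite directions from day 1 to day 3. In Ctrl 28 members fell and 1 rose, where 36.1% of tested genes were called, 11.0% as lower and 25.0% as higher, and the median change was −0.28 against 0.11 for all genes. In 30 members every day 3 Ctrl library lay below every day 1 Ctrl library and in 2, Ifit1 and Ifit2, above, where 13.7% and 33.0% of tested genes did so. In Fzd5KO 42 rose and 0 fell, where 34.4% and 10.5% of tested genes did, and the median was 0.98 against 0.11. The 2 days did not overlap, with day 3 above, in 42 members and in 39.6% of tested genes. These time contrasts use the same 12 libraries as the genotype contrasts and are another view of them.

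In Ctrl the largest falls were in Oas1g (−1.12 ± 0.10, adjusted p = 1.01e-05), Oas3 (−0.99 ± 0.048), Ubd (−0.80 ± 0.14), Ifi44 (−0.78 ± 0.093), Oas1a (−0.76 ± 0.091) and Xaf1 (−0.66 ± 0.10), whose day 1 values were 15.1, 14.4 and 10.97 TPM. The 1 member that rose in Ctrl was Ifit1 (0.24 ± 0.065, adjusted p = 0.0142), and it did not pass with quantile normalization (adjusted p = 0.229) or median-of-ratios scaling (adjusted p = 0.21). In Fzd5KO the largest rises were in Ubd (5.10 ± 0.14), Ifi44 (3.10 ± 0.093), Isg15 (2.13 ± 0.099), Usp18 (2.09 ± 0.077), Ifit2 (1.85 ± 0.085) and Oas1g (1.82 ± 0.10). Ifi27 did not pass in Fzd5KO (0.16 ± 0.069, adjusted p = 0.0758), and its sign turned with quantile normalization (−0.06) and with rescaling (−0.10). The rise of Irf9 in Fzd5KO (0.39) was lost under the same scalings (adjusted p = 0.0885 and 0.186), and that of Irf1 (0.41) with quantile normalization (adjusted p = 0.119).

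Ctrl day 3 had the lowest summed level of the members, so Fzd5KO day 3 was also set against Ctrl day 1, a comparison chosen after the data were seen that mixes genotype and day. In 41 of 43 members every Fzd5KO day 3 library lay above every Ctrl day 1 library, against 27.8% of tested genes. Isg20 and Ifi27 were the exceptions.

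Interferons themselves were at or near 0 in these libraries. Of 14 ligand genes, a list that also held the cytokines Il22 and Il27, which are not interferons, 0 reached the minimum. Their summed level was 0.00 to 0.39 TPM in every library. Ifnb1, 4 of the Ifna genes (Ifna1, Ifna4, Ifna5 and Ifna12), Ifnl2, Ifnl3 and Il22 were listed at 0 in all 12 libraries. Ifng, the gene of interferon gamma, was listed at 0.03, 0.30 and 0.00 TPM in Fzd5KO day 3 and at 0.07 TPM or less in every other library. With no counts, the limit that these values set cannot be given.

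Receptors and signalling genes of the pathway were present and mostly rose. Of 11 genes 10 rose at day 3 and 0 fell, with a median of 0.46, where 24.3% of tested genes were called higher and 38.5% lower. Tyk2 did not pass (0.04 ± 0.056). Jak2, a kinase of the interferon gamma receptor, rose by 0.96 ± 0.035 at day 3. Among the receptor chains, Ifnlr1 (type III) rose by 0.70 ± 0.058, from 7.86 to 8.88 TPM to 13.9 to 14.4 TPM, Ifnar2 (type I) by 0.80 ± 0.083, Ifnar1 by 0.42 ± 0.13 and Ifngr1 (type II) by 0.17 ± 0.037. At day 1, 3 of the 11 fell and 0 rose, where 22.8% of tested genes were called lower and 2.13% higher. The split was 5 higher and 0 lower with median-of-ratios scaling, 2 and 0 with quantile normalization and 0 and 0 with rescaling. The matching all-gene counts, of 14510, were 1277 higher and 912 lower, 851 and 920, and 773 and 1349.

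Sensors, adaptors and kinases outside the set gave a divided picture. Of 21 tested 10 rose and 6 fell at day 3. On the same deposited TPM scale 24.3% of all tested genes were called higher and 38.5% lower at day 3, and 2.13% and 22.8% at day 1. With median-of-ratios scaling 13 rose and 5 fell at day 3, where 4567 of the 14510 tested genes were called higher and 4248 lower. All-gene counts at day 1 under the other scalings are given above. Zbp1, a sensor of Z-form nucleic acid, rose by 2.22 ± 0.066, from 7.72 to 8.98 TPM to 40.4 to 42.7 TPM, and it was the 1 gene of the list that rose at day 1 (0.31 ± 0.066, adjusted p = 0.00737), when 7 fell (0 with median-of-ratios scaling and 1 with quantile normalization). Adar, which edits double-stranded RNA, Mavs, the adaptor of RIG-I and MDA5, and the kinase Tbk1 rose by 0.43, 0.47 and 0.54 at day 3.

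A list of negative regulators outside the set was split as well. Of 13 tested 5 rose and 2 fell at day 3, against 24.3% and 38.5% of all tested genes. With median-of-ratios scaling 9 rose and 2 fell, where 4567 of the 14510 tested genes were called higher and 4248 lower. Nlrc5, an NLR protein that also drives MHC class I genes, rose by 2.60 ± 0.17, from 2.05 to 4.18 TPM to 21.8 to 23.8 TPM. Socs3, a feedback inhibitor of cytokine signalling, rose by 1.59 ± 0.11. Isg20l2, a listed gene that is not an established regulator of interferon signalling, and the phosphatase Ptpn2 fell (−0.54 and −0.52).

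Further interferon-induced genes that are not members also rose. Of 65 tested on a list of such genes, 55 rose and 4 fell at day 3, with a median of 0.88, and at day 1 2 rose and 12 fell (8 and 6 with median-of-ratios scaling, 7 and 6 with quantile normalization, 5 and 7 with rescaling). Over all tested genes 24.3% were called higher and 38.5% lower at day 3, and 2.13% and 22.8% at day 1. These shares are on the deposited TPM scale, and the all-gene counts under the other scalings are given above. The listed genes with the smallest p at day 3 were Tap1, the peptide transporter of MHC class I (1.66 ± 0.044), Sp100, a nuclear body protein (1.47 ± 0.044), Igtp, a GTPase of the interferon gamma response (2.11 ± 0.067), and Ube2l6, the conjugating enzyme of Isg15 (1.98 ± 0.073). The 4 that fell, named after their values were seen, were Ifitm2 (−1.82 ± 0.089), Ifitm3 (−1.15 ± 0.070), Slfn9 (−1.37 ± 0.062) and Otud4 (−0.26 ± 0.080). Ifitm2 and Ifitm3 encode membrane proteins that block viral fusion and were also lower at day 1 (−0.63 and −1.11).

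Markers of several other cell types differed between the groups, in both directions. Beside the marker counts here and in the next paragraph, 24.3% of tested genes were called higher and 38.5% lower at day 3. At day 1 these shares were 2.13% and 22.8%, and 11.0% were called lower from day 1 to day 3 in Ctrl. All are on the deposited TPM scale, and marker counts under another scaling go with the all-gene counts given above for it. T cell and intraepithelial lymphocyte markers summed to 202 to 225 TPM in Ctrl day 1, 137 to 163 TPM in Fzd5KO day 1, 51.2 to 54.2 TPM in Ctrl day 3 and 185 to 214 TPM in Fzd5KO day 3. All 14 tested of 16 were higher in Fzd5KO at day 3, 5 were lower at day 1 (3 with each of the other 3 scalings), and all 14 fell from day 1 to day 3 in Ctrl. Gzma, a granule protease of these lymphocytes, changed by 2.04 ± 0.070 at day 3. Macrophage and dendritic cell markers summed to 29.1 to 31.2 TPM in Fzd5KO day 3 and 9.84 to 14.6 TPM elsewhere, with 7 of 8 tested higher at day 3. Of 7 tested B and plasma cell markers 5 were higher and 0 lower at day 3 (5 and 1 with quantile normalization and with rescaling). Neutrophil markers, none of which reached the minimum, summed to 0.20 to 0.47 TPM in Ctrl day 3 and 1.93 to 2.31 TPM in Fzd5KO day 3, with S100a8 and Ly6g listed at 0 in every day 1 library. Plasmacytoid dendritic cell markers went both ways, 2 higher and 1 lower of 4 tested at day 3, and their sum was 133 to 149 TPM in Ctrl day 3 and 75.5 to 82.5 TPM in Fzd5KO day 3. Erythroid markers went against the members: all 5 were lower in Fzd5KO at day 3, with sums of 201 to 228 TPM in Ctrl and 54.4 to 69.4 TPM in Fzd5KO. Of 5 tested fibroblast and muscle markers 0 were called at day 3. Endothelial markers were low, summing to 0.92 to 1.08 TPM in Ctrl day 3 and 2.23 to 2.51 TPM in Fzd5KO day 3. Only 1 of the 5 was tested, and it was higher. In the comparison of Fzd5KO day 3 with Ctrl day 1, the lymphocyte sums overlapped, as did the fibroblast and muscle sums. Among these lists, macrophage and dendritic cell sums lay higher without overlap in Fzd5KO day 3 (29.1 to 31.2 against 11.1 to 13.4 TPM). Neutrophil sums (1.93 to 2.31 against 0.02 to 0.09 TPM), endothelial sums (2.23 to 2.51 against 1.05 to 1.63 TPM) and B and plasma cell sums did too. Erythroid and plasmacytoid dendritic cell sums lay lower without overlap.

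The epithelium also differed in its own markers. The 8 general epithelial markers summed to 4925 to 5121 TPM in Ctrl day 3 and 7350 to 7523 TPM in Fzd5KO day 3, with 6 higher and 2 lower. Crypt base stem cell markers summed to 410 to 430 TPM in Ctrl day 1, 115 to 121 TPM in Fzd5KO day 1, 616 to 658 TPM in Ctrl day 3 and 71.0 to 73.7 TPM in Fzd5KO day 3, and all 6 were lower on both days. Villus top enterocyte markers summed to 4929 to 5276 TPM in Ctrl day 1 and 7338 to 7688 TPM in Fzd5KO day 1, with 6 higher and 1 lower (0 lower with each of the other 3 scalings). At day 3 the sums were 5223 to 5598 TPM in Ctrl and 14040.0 to 14470.0 TPM in Fzd5KO, with 8 of 8 higher. The part of these lymphocyte, myeloid, endothelial, erythroid and epithelial changes in the levels of the members was not tested.

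**Figure D4:**
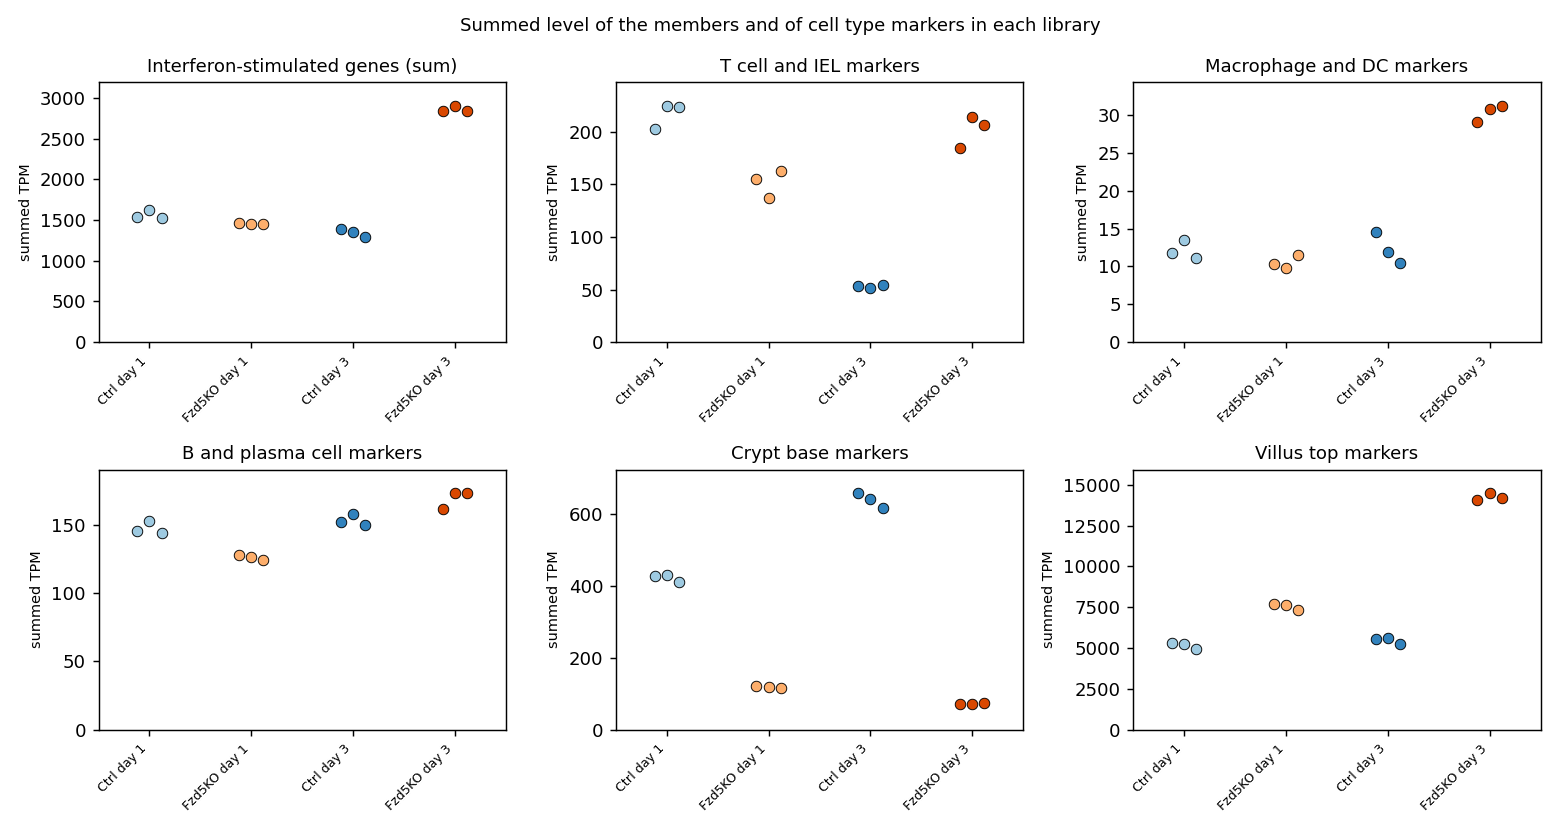
Summed TPM in each library (points) of the members and of 5 lists of cell type markers, by group. The members are highest in Fzd5KO day 3 (2839 to 2901 TPM). The lymphocyte markers are about as high in Ctrl day 1 (202 to 225 TPM) as in Fzd5KO day 3 (185 to 214 TPM). The macrophage and dendritic cell, B and plasma cell and villus top markers are highest in Fzd5KO day 3, and the crypt base markers are lowest there.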

How the data were processed

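Per the labels' protocols, RNA of mouse jejunal epithelium was purified with RNeasy and made into TruSeq Stranded Total RNA libraries. Named in the submitters' processing notes, without role or order, are mm10, RSEM, STAR 2.7.3a and bcl2fastq 2.18. The authors deposited 1 table of TPM for 55421 genes in 12 libraries. Depth is unknown from TPM, so no counting interval could be given.

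The log2(TPM + 1) values, pseudocount 1, were tested with limma 3.58.1 in R 4.3.3, with 4 group means, an intensity trend and 8 residual degrees of freedom, on genes that reached 1 TPM in 3 or more libraries. P-values were adjusted by Benjamini-Hochberg over all tested genes and called under 0.05. The procedure was tested on simulated data in which a small part of the genes changed, in Fzd5KO day 3 only. These held no shift in RNA composition between groups, so they could not examine the effect of scaling. The contrasts were genotype on each day, their difference, and day within each genotype. Samples were grouped by the genotype and time in their titles. Replicate numbers did not pair the libraries: over 18 same-number pairs, correlations of deviations from group means ran from −0.069 to 0.093.

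Coordinates and transcripts come from GENCODE mouse release 21 (GRCm38), which matched 55154 identifiers and all 44 members. Promoters are RefSeq windows. Printed stretches run up to 50 bases either side of the matches. Members and lists were chosen with earlier results of these data known. Values in every library are given for called members whose log2 change was 0.5 or more in size, up to 12 in a genotype contrast, for up to 6 in the interaction and each time contrast, and for Stat2, Irf7, Irf9, Isg15, Usp18, Oas2, Ifit1 and Ubd. Some further members, among them Irf1, Isg20, Parp14, Ifi27 and Ifi27l2b, were given in full after their values were seen. From each pathway list up to 4 genes by smallest p were eligible, with a few receptors and signalling genes whatever their result; 1 item is not reported here. Figures used matplotlib 3.10.9 in Python 3.11.15.

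Each of the following was changed alone: the pseudocount (0.1 or 5), the filter (none, or 5 TPM in 3 libraries), the scaling (quantile, median-of-ratios, or TPM rescaled after dropping mitochondrial, predicted and small RNA genes with the 20 most abundant others), the trend, array weights, a replicate block, the groups fitted, and each library in turn.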

Additional observations from a re-analysis of the deposited data

Results flagged for a closer look

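The day 3 genotype effect was higher than the day 1 effect in 42 members (interaction, limma adjusted p under 0.05, where 25.3% of tested genes differed in this direction). Values are the day 3 change minus the day 1 change, on the log2 scale. Among transcription factors the difference was 0.441 in Irf1, 1.87 in Irf7, 0.673 in Irf8, 0.475 in Irf9 and 1.11 in Stat2. Among RNA sensors and their cofactors it was 0.901 in Ddx58, 1.04 in Ifih1, 1.63 in Dhx58, 2.41 in Ddx60 and 1.03 in Trim25. For ubiquitin-like modifiers and their enzymes it was 2.45 in Isg15, 2.4 in Usp18, 1.24 in Herc6 and 5.9 in Ubd. In the OAS, PKR and nuclease group it was 2.48 in Oas1a, 2.94 in Oas1g, 1.86 in Oas2, 2.46 in Oas3, 2.19 in Oasl1, 2.16 in Oasl2, 0.882 in Eif2ak2 and 1.03 in Samhd1. The Ifit genes gave 1.43 in Ifit1, 1.65 in Ifit2, 1.53 in Ifit3 and 1 in Ifit3b. Other effectors gave 1.07 in Mx1, 1.24 in Mx2, 1.76 in Rsad2, 1.2 in Cmpk2, 1.85 in Bst2, 1.54 in Rtp4, 3.88 in Ifi44, 0.668 in Ifi35, 1.71 in Xaf1, 1.15 in Lgals3bp, 0.404 in Ifi27 and 0.837 in Ifi27l2b. ADP-ribosyltransferases and Dtx3l gave 0.671 in Parp9, 1.61 in Parp12, 0.709 in Parp14 and 0.665 in Dtx3l. All 42 were positive, from 0.404 in Ifi27 to 5.9 in Ubd. No group of 3 libraries was checked for a single far value.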

How the results depend on the processing

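The day 3, interaction and time course counts of called members stayed within 1.5 times their values under every alternative run. Leaving out each library in turn gave 41 to 42 called members at day 3, 42 for the interaction, 22 to 28 for day in Ctrl, 42 to 43 for day in Fzd5KO and 17 to 25 at day 1, against 24 at day 1 with all libraries. The day 1 count alone moved beyond that, to 15 with quantile normalization (5 higher, 10 lower). Day 1 changes turned sign for Ifih1, Trim25 and Oasl1 (each with all 3 other scalings), for Ifit1 (0.058 with quantile normalization, 0.065 with median-of-ratios scaling, 0.014 with rescaling), for Irf9 (0.017 with median-of-ratios scaling) and for Ubd (0.030 with quantile normalization, and from −0.25 to 0.014 when 1 library was left out, positive only without Ctrl day 1 replicate 2), and none of these 6 passed under the settings named. The cause was not tested. With the replicate number as a block, 23 members were called at day 1, 41 at day 3, 42 for the interaction, 28 for day in Ctrl and 42 for day in Fzd5KO, and Usp18 lost its day 1 call (adjusted p = 0.0515).

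Depth is unknown, so how far counting error limits members under 2 TPM, such as Isg20, Ifit3b and Ubd in Ctrl, cannot be stated.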
